A study of Homo sapiens with 4 samples.

Results

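The alkaline phosphatase genes of the human genome were examined in RNA-seq of cells labelled as HepG2, a line established from a liver tumor. The 4 members, out of 59050 gene symbols in the deposited counts, were chosen by their symbols. They are ALPP, the placental form, ALPG (also written ALPPL2), the germ cell form, ALPI, the intestinal form, and ALPL, the tissue-nonspecific form. The family was selected on the counts of ALPP, ALPI and ALPL seen earlier in these same 4 libraries and in this same contrast, so that their levels and their doxorubicin differences are given as a description, with no p-value of their own. There were 2 untreated libraries (0 h) and 2 libraries of cells that had received doxorubicin, a DNA-damaging drug, at 1 ug/ml for 24 h in order to raise p53. All 4 libraries carry the same cell line label, and no other genotype, agent or time was given. A treatment tag of the doxorubicin libraries names a miRNA experiment, and their titles and the design of the series were followed.

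Alkaline phosphatases are dimeric metalloenzymes that are held on the outside of the plasma membrane by a glycosylphosphatidylinositol (GPI) anchor and remove phosphate from many substrates. The tissue-nonspecific enzyme of liver, bone and kidney hydrolyses pyrophosphate, an inhibitor of mineralization, and pyridoxal phosphate, the circulating form of vitamin B6. The intestinal enzyme sits on the brush border of enterocytes, and the placental enzyme is a product of the syncytiotrophoblast that some tumors also make, as they do the germ cell enzyme. ALPL is the form made by normal liver.

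ALPP, ALPG and ALPI lie in the same orientation on chromosome 2 of GRCh38, with ALPP at 232378724 to 232382889, ALPG at 232406844 to 232410714 and ALPI at 232456125 to 232460753. ALPL is on chromosome 1 at 21509397 to 21578410. The coding sequences of ALPP (1605 bp) and ALPG (1596 bp) were 97.3% identical over 1605 aligned positions. ALPI (1584 bp) was 88.5% identical to ALPP and 88.8% identical to ALPG. ALPL (1572 bp) shared 62.8% of positions with ALPP.

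The reference coding sequence around the codon of the catalytic serine is shown, since it makes visible how close the 3 genes of chromosome 2 are. Each line has 99 bases of the spliced coding sequence, joined across the intron between exons 3 and 4 of each gene. Capitals mark the serine codon (codon 114) in ALPP, and in ALPG and ALPI each base that differs from ALPP.
ALPP, plus strand of GRCh38, chr2:232379298-232379593: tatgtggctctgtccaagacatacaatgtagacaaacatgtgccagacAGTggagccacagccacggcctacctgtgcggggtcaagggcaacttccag
ALPG, plus strand, chr2:232407384-232407674: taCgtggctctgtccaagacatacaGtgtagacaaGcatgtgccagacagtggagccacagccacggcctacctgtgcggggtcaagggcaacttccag
ALPI, plus strand, chr2:232456678-232456979: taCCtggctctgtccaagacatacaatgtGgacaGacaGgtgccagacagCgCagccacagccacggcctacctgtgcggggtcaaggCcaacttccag
In this stretch ALPG differed from ALPP at 3 bases and ALPI at 8. A read that falls in the part shared by ALPP and ALPG cannot be assigned to either gene by its sequence.

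How much of each transcript is shared in this way was counted over windows of 50, 100 and 150 bases. Of the 2655 windows of 100 bases in the ALPP transcript, 379 (14.3%) were found letter for letter in ALPG, and these were 15.8% of the ALPG windows. At 150 bases the shares were 7.64% of ALPP and 8.49% of ALPG. ALPI and ALPL had 0 windows of 100 bases in another gene of GENCODE release 44. At 50 bases 27.4% of ALPP, 29.3% of ALPG and 1.19% of ALPI windows were found in another of the 4 genes, and ALPP also had matches in 29 genes outside the family. The read length and the treatment of reads with several matches were not given in the sources used here, so counts of ALPG are uncertain next to those of ALPP.

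**Figure D1:**
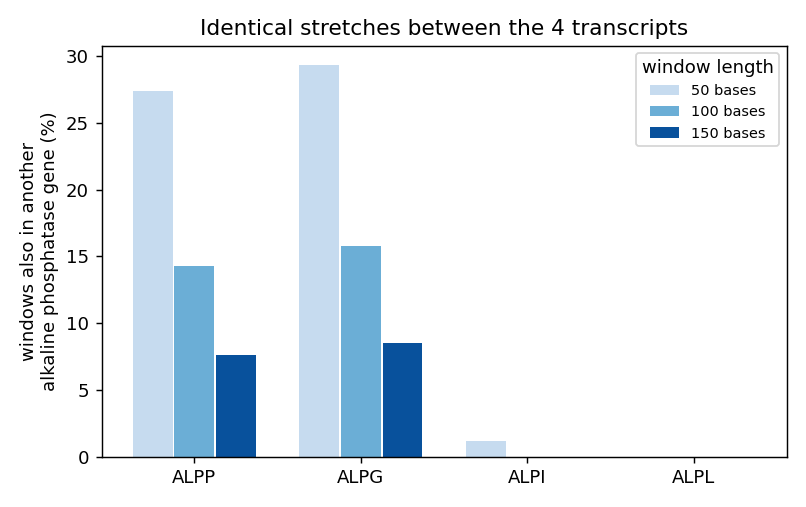
Share of windows (vertical axis, %) of the ALPP, ALPG, ALPI and ALPL reference transcripts that occur letter for letter in another of the 4 genes, for windows of 50, 100 and 150 bases (bar shades). ALPP and ALPG share 14.3% and 15.8% of their 100-base windows, whereas ALPI and ALPL share 0 at that length.

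The sequence just upstream of each start is shown for the genes of the cluster, whose levels are set side by side below. The capitals mark a GC box (GGGCGG), the only motif searched that had a match in any of these 3 windows. The ALPP and ALPI sequences end before the first annotated exon base.
ALPP, plus strand of GRCh38.p14, chr2:232378501-232378723: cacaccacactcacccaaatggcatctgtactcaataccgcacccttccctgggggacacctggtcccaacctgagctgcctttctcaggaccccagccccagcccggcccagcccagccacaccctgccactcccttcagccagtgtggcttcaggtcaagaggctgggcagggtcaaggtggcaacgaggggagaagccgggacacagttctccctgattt
ALPG, plus strand, chr2:232406594-232406843: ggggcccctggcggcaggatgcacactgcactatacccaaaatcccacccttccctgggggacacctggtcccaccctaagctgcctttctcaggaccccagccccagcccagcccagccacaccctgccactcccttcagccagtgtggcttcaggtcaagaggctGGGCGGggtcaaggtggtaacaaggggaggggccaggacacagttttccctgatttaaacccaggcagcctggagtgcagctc
ALPI, plus strand, chr2:232455903-232456124: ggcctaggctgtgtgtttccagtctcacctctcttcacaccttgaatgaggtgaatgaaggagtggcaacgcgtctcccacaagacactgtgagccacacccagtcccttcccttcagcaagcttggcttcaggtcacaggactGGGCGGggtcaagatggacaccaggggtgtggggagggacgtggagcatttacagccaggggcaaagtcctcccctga
These sequences are from RefSeq, in which 4 of 4 members were matched. Over the 250 bases before the RefSeq start, ALPP and ALPG were 84.4% identical, ALPP and ALPI 56.6%. Motifs were searched on both strands of these 250 bases, and no match overlapped another. The GC box began 83 bases before the start of ALPG and 106 bases before that of ALPI, and was not found in the window of ALPP. It was present in 42.6% of 35116 promoters of the same length. The TATA box (TATAAA, 10.7% of promoters), the CCAAT box (CCAAT, 32.0%), the AP-1 motif (TGANTCA, 6.57%) and the p53 half-site (5.57%) had no match in the windows of ALPP, ALPG or ALPI. ALPL has 3 RefSeq starts. The window that begins at 21509173 had 4 GC boxes and a TATA box on the minus strand, and those of the other two starts had no match to any of the 5 motifs.

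The libraries held between 27572740 and 36272180 counts. Untreated replicate 2 stood apart from the others, with the highest or the lowest CPM of all 4 in 81.6% of the 17479 genes left by the filter on low counts. This share was 45.4% for untreated replicate 1, and 26.9% and 46.0% for the doxorubicin replicates. Differences are therefore also given without untreated replicate 2. CPM is the count scaled to the total of the library. The label of the cells was checked against 22 markers of liver and HepG2. Of these, 11 had fewer than 10 counts in every library, among them ALB (0 to 3 counts), TTR and SERPINA1, which goes against the label. The summed level of all 22 markers was 30.9 to 55.7 CPM, of which most came from VTN and FOXA1. The cells are therefore called by their labels only.

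ALPP was the leading form in all 4 libraries, in CPM and per kb. Its level was 475.7 CPM (17254 counts) in untreated replicate 1 and 679.2 CPM (19613 counts) in untreated replicate 2. After doxorubicin it was 197.0 CPM (6760 counts) in replicate 1 and 159.6 CPM (4400 counts) in replicate 2. Both treated libraries were below both untreated libraries, with log2 differences of -1.27 to -2.09 over the 4 pairings of a treated with an untreated library. The untreated libraries differed 1.43-fold from each other and the treated libraries 1.23-fold. In rank by CPM, ALPP was gene 286 and 188 of all genes in the untreated replicates, against gene 961 and 1302 in the doxorubicin replicates. The mean was 577.4 ± 143.9 CPM (SD, n = 2) in untreated and 178.3 ± 26.5 CPM (SD, n = 2) in treated cells, which is a 3.24-fold lower level after treatment. The fitted log2 fold change was -1.85 (standard error 0.34), and -1.56 without untreated replicate 2. In bulk RNA fewer cells that make a transcript and less of it per cell cannot be told apart.

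ALPI came next in CPM and per kb, and its untreated libraries were far apart. It had 142.0 CPM (5151 counts) in untreated replicate 1 but 50.5 CPM (1458 counts) in untreated replicate 2, a 2.81-fold difference. The doxorubicin replicates had 90.3 CPM (3099 counts) and 52.6 CPM (1450 counts). Both treated values lay between the untreated values, so the groups overlapped. The log2 fold change of ALPI was -0.58 (standard error 0.59). It was -1.13 without untreated replicate 2 and 0.42 without untreated replicate 1, so that its direction depends on the untreated library used.

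ALPG was present at a low level. It had 1.35 CPM (49 counts) and 6.03 CPM (174 counts) in the untreated replicates, against 1.37 CPM (47 counts) and 0.62 CPM (17 counts) in the doxorubicin replicates. Untreated replicate 2 was 4.46 times untreated replicate 1, and the groups overlapped because untreated replicate 1 was just under doxorubicin replicate 1. The log2 fold change was -1.98 (standard error 0.93), and -0.54 without untreated replicate 2. For every 1000 counts on ALPP there were 2.84 and 8.87 counts on ALPG in the untreated replicates, against 6.95 and 3.86 in the doxorubicin replicates. Reads of ALPP that were placed on ALPG would enter this number, and their part in it was not tested.

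ALPL, the form of liver and bone, was almost absent. It had 0 and 7 counts in the untreated replicates, against 11 and 4 counts in the doxorubicin replicates. The count of 0 corresponds to a level below 0.0827 CPM when 3 counts are taken as the floor, and below 0.102 CPM by the exact 95% Poisson limit, and the other 3 libraries were at 0.24, 0.32 and 0.15 CPM. In all, 22 of 127035156 counts were on ALPL, and it did not pass the filter on low counts. Summed over libraries, the treated over untreated ratio was 2.26 with an exact 95% Poisson interval of 0.866 to 6.54 that covers counting error alone. In a fit without the filter the log2 fold change of ALPL was 1.04 (standard error 1.29). A difference was thus not resolved with so few counts and 2 libraries in each group.

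**Figure D2:**
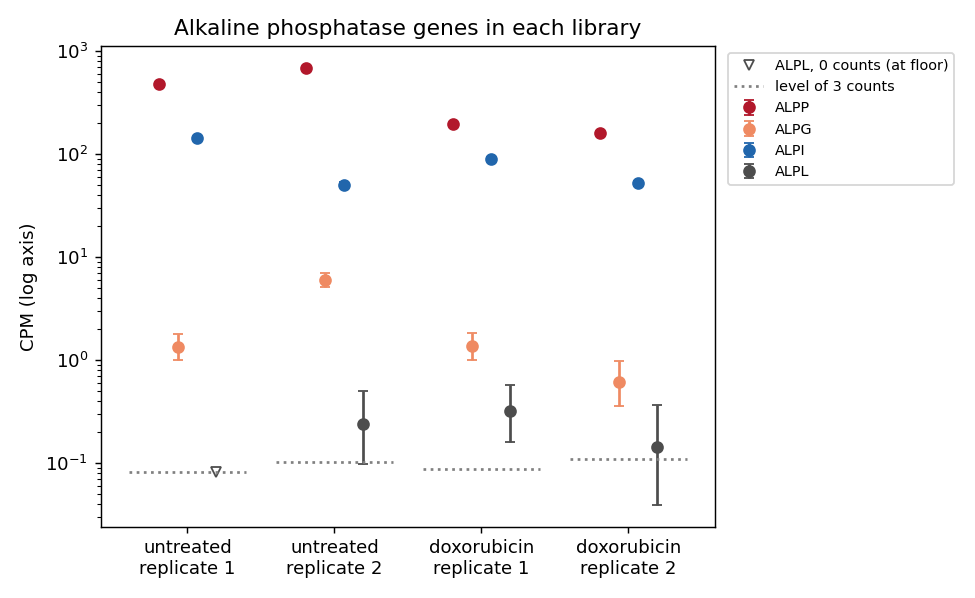
CPM on a log axis (vertical) of ALPP, ALPG, ALPI and ALPL in each of the 4 libraries, with exact 95% Poisson intervals as bars and the level of 3 counts as dotted lines. ALPP is at 475.7 and 679.2 CPM in the untreated and 197.0 and 159.6 CPM in the doxorubicin libraries, ALPI overlaps between the groups, and ALPL is near the level of 3 counts, with 0 counts in untreated replicate 1 (open triangle).

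Over the 4 genes, 3 passed the filter and entered the fit across 17479 genes. Of these 3, 0 passed the thresholds, which were an adjusted p-value under 0.05 (edgeR quasi-likelihood test, Benjamini-Hochberg) together with a log2 change of 1 or more in either direction. The share of all genes that passed them was 0%. An unadjusted p-value under 0.05 was found by the same test for 768 genes, which is 4.39% of all, with 2.66% higher and 1.73% lower after doxorubicin. DESeq2 called 90 of the 17479 genes (0.515%), ALPP among them. ALPP was the only member whose groups did not overlap. Both doxorubicin libraries were below both untreated libraries in 11.5% of the genes tested (9.58% of all genes with a count) and above them in 30.3%. A log2 fold change of -1 or less was found for ALPP and ALPG, and for 11.5% of all genes tested. The median over all 17479 genes tested was 0.01. A log2 fold change of 1 or more was found for 7.67% of all genes tested. ALPL had such a value in the fit without the filter, for which the share of all genes is not given here. Since the members were chosen with this contrast known, these counts are a description. An exact permutation test of 2 against 2 libraries cannot go below a two-sided p-value of 0.333.

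The placental and tissue-nonspecific forms were then compared within each library, per kb of exon length (2869 bp for ALPP, 2980 bp for ALPL), since longer transcripts give more reads. ALPP was at 165.8 and 236.7 CPM per kb before treatment, and at 68.7 and 55.6 CPM per kb after it. The highest level of ALPL was 0.108 CPM per kb, in doxorubicin replicate 1. In untreated replicate 1 ALPP was at least 5974-fold above ALPL with the floor of 3 counts, or at least 4858-fold with the exact 95% limits, and it was 2910-fold above ALPL in untreated replicate 2. In the doxorubicin replicates the ratio was 638 and 1143. The exact 95% counting intervals were 1412 to 7239 in untreated replicate 2, 357 to 1279 in doxorubicin replicate 1 and 446 to 4195 in doxorubicin replicate 2. The ratio was lower in both treated than in both untreated libraries, while the intervals of doxorubicin replicate 2 and untreated replicate 2 overlap. The change of ALPP minus the change of ALPL was -2.80 on the log2 scale in the fit without the filter. It was -1.93 without untreated replicate 1 and -2.25 without doxorubicin replicate 1. Without untreated replicate 2 it cannot be given as a fold, because ALPL was then at 0 in the untreated group.

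ALPP was also compared with the other genes of its cluster per kb. It was above ALPI 3.91-fold in untreated replicate 1 and 15.7-fold in untreated replicate 2, and 2.55-fold and 3.54-fold in the doxorubicin replicates. The wide ratio of untreated replicate 2 comes with its higher ALPP and its lower ALPI value. ALPP was above ALPG 305.9-fold and 97.9-fold in the untreated replicates, against 124.9-fold and 224.8-fold in the doxorubicin replicates. The order of levels per kb was ALPP, ALPI, ALPG and ALPL in every library.

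Of the summed CPM per kb of the 4 genes, ALPP had 79.4% and 93.1% in the untreated replicates, against 71.3% and 77.7% in the doxorubicin replicates. ALPI had 20.3% and 5.92% in untreated and 27.99% and 21.9% in treated cells. ALPG did not exceed 0.951% and ALPL did not exceed 0.112% in any library. The summed level of the 4 genes was 619.0 and 736.0 CPM in the untreated replicates, against 289.0 and 212.9 CPM in the doxorubicin replicates. The total was lower in both treated libraries, and ALPP held most of it in all 4.

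**Figure D3:**
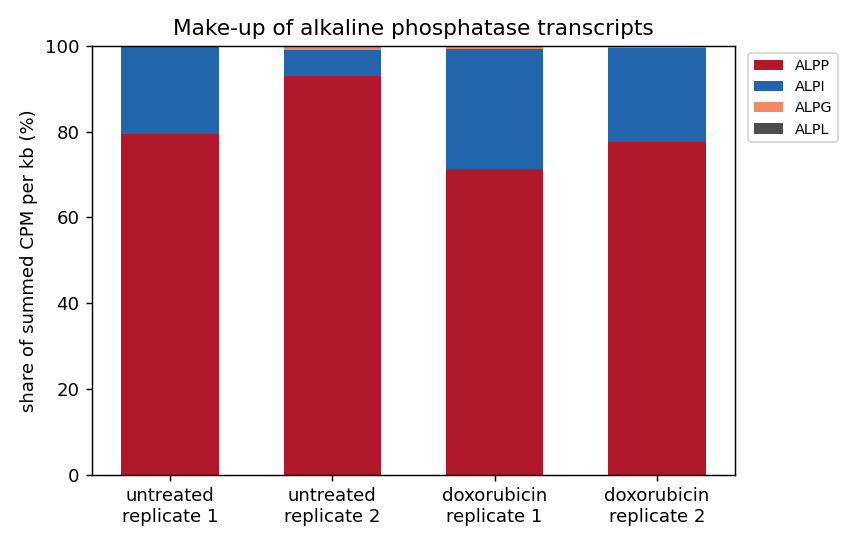
Share of ALPP, ALPI, ALPG and ALPL (stacked, %) in their summed CPM per kb of exon length, for each library. ALPP holds between 71.3% and 93.1%, ALPI most of the rest, and ALPG and ALPL are thin or not visible.

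The difference of ALPP kept its direction in all alternatives of scaling, filter, test and left-out library, with log2 fold changes between -2.01 and -1.56. That of ALPG was between -2.68 and -0.54. ALPI was below 0 in all alternatives apart from the fit without untreated replicate 1.

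**Figure D4:**
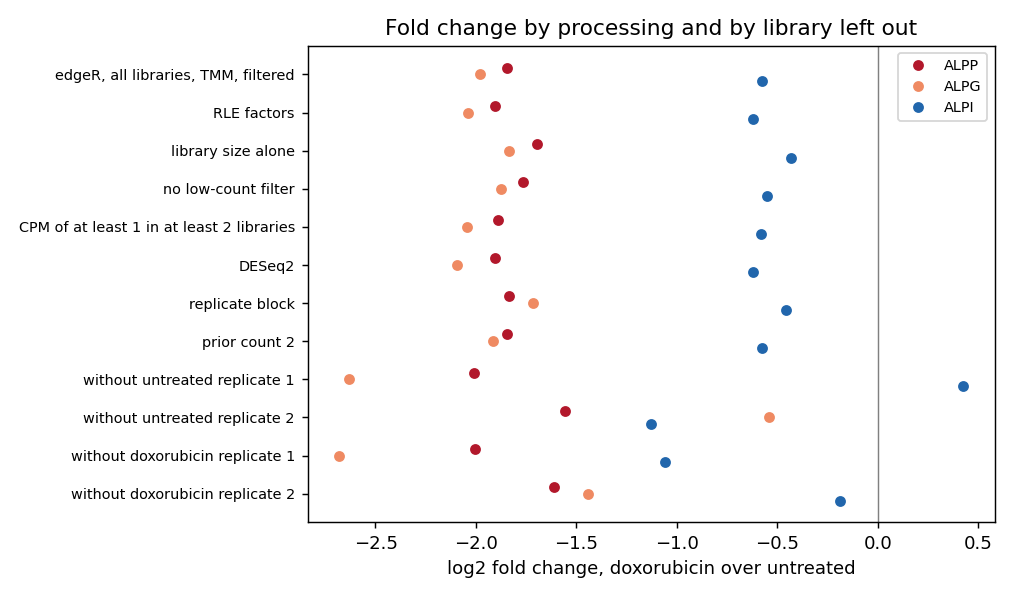
Log2 fold change of doxorubicin over untreated (horizontal axis) for ALPP, ALPG and ALPI under each way of processing and with each library left out (vertical axis). ALPP stays between -2.01 and -1.56, ALPG moves to -0.54 without untreated replicate 2, and ALPI turns to 0.42 without untreated replicate 1.

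The genes around the cluster were described in the same fit, to see whether the lower level of ALPP was shared along the chromosome. Of 15 annotated genes within 250 kb, 7 were tested, 0 passed the thresholds, and 0 were higher and 1 was lower at an unadjusted p-value under 0.05 (edgeR). Their median was -0.29 on the log2 scale (-0.29 without untreated replicate 2, -0.05 without untreated replicate 1), and 4 of them were below 0. Over all genes tested, 2.66% were higher and 1.73% lower at an unadjusted p-value under 0.05 (edgeR). Both treated libraries were below both untreated libraries in 11.5% of all genes tested. Among the 7 neighbours this held for 2, a count too small to set against that share. These are PRSS56 and CHRND, which lie next to each other beyond ALPI.

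PRSS56, a serine protease gene known for its role in eye growth (chromosome 2, 232520388 to 232525716), was among the abundant genes too. It had 613.6 and 877.4 CPM in the untreated replicates, against 495.6 and 394.3 CPM in the doxorubicin replicates. The fitted log2 change was -0.90 with a standard error of 0.33 (edgeR, Benjamini-Hochberg adjusted p-value 0.773), and -0.61 without untreated replicate 2. CHRND, the delta subunit gene of the muscle acetylcholine receptor, had 3.56 and 4.78 CPM in untreated and 2.07 and 1.38 CPM in treated cells. Its log2 fold change was -1.40 (standard error 0.57), and -1.17 without untreated replicate 2. As for ALPP, both genes were highest in untreated replicate 2 and lowest in doxorubicin replicate 2.

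The other 5 neighbours had overlapping groups. DIS3L2, an RNA exonuclease gene upstream of ALPP, was at 28.5 and 7.20 CPM in untreated and 25.8 and 25.8 CPM in treated cells. For EIF4E2, a cap-binding protein gene, the log2 fold change was -0.29 (standard error 0.34), and for TIGD1 it was 0.01 (standard error 0.46). GIGYF2, whose product acts with that of EIF4E2 in translational repression, had 0.57 (standard error 0.71), but -0.13 without untreated replicate 2 and 2.13 without untreated replicate 1. DIS3L2 turned in the same way, from 0.37 to -0.29 and 1.76, and EIF4E2 moved to -0.47 and 0.01. EFHD1 had -1.21 (standard error 0.82) and -0.18 without untreated replicate 2.

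**Figure D5:**
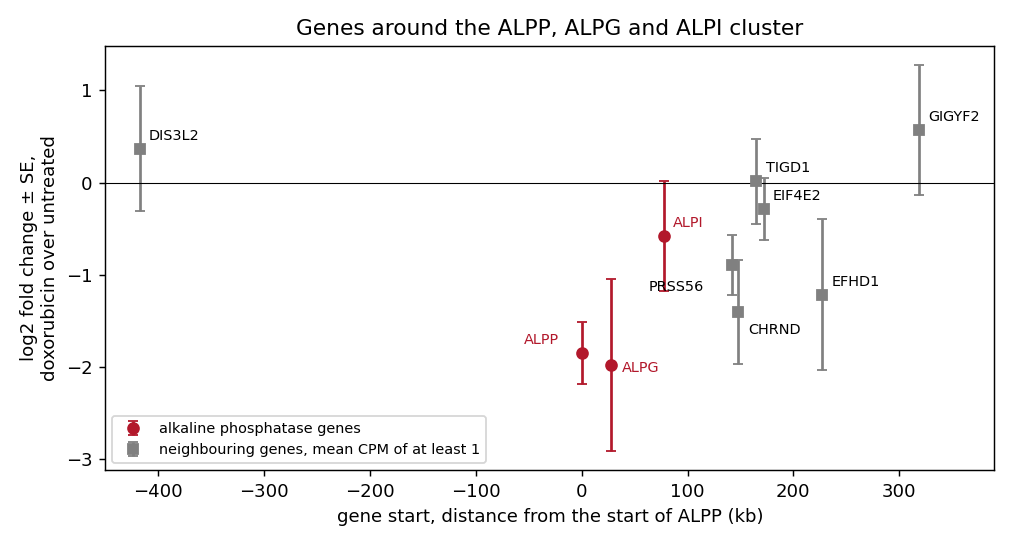
Log2 fold change ± standard error (vertical axis) of the 3 clustered alkaline phosphatase genes (circles) and of the 7 neighbours with a mean of at least 1 CPM (squares), against the distance of their start from that of ALPP in kb. PRSS56 (-0.90) and CHRND (-1.40) lie below 0 with ALPP and ALPG, while DIS3L2, TIGD1, EIF4E2 and GIGYF2 lie within 1 standard error of 0.

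Around ALPL on chromosome 1, 7 of 12 annotated neighbours were tested, and 0 of them reached the thresholds or an unadjusted p-value under 0.05 (edgeR). All 7 had log2 fold changes above 0, with a median of 0.56, and it was -0.01 without untreated replicate 2. HSPG2, the gene of the basement membrane proteoglycan perlecan, was at 376.0 and 225.9 CPM in untreated and 366.1 and 315.3 CPM in treated cells. ECE1, endothelin converting enzyme, had between 173.7 and 290.5 CPM. USP48, a deubiquitinase gene, had between 18.2 and 81.7 CPM, and RAP1GAP, the gene of a Rap GTPase activator, between 11.9 and 34.9 CPM. NBPF3 had between 1.42 and 8.20 CPM. Genes on either side of ALPL were thus expressed while ALPL had 22 counts in all.

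Genes whose pattern over the 4 libraries was closest to ALPP were named by the Euclidean distance of centred log2(CPM + 0.5), among 12561 genes with a mean of at least 1 CPM. The nearest was SUSD2, a sushi domain membrane protein gene (distance 0.132), with 53.7 and 76.1 CPM in untreated and 19.6 and 17.4 CPM in treated cells. Next came ST6GAL1, a sialyltransferase gene (0.141), with 1.93 and 3.22 CPM in untreated and 0.55 and 0.44 CPM in treated cells. TNNC1 (0.307), CDC20P1 (0.471) and GPR50 (0.508) followed. ALPG had a distance of 1.06 from ALPP and ALPI of 2.00, and 343 and 5929 other genes were closer to ALPP than these. The distance rests on 4 libraries, and the offset of 0.5 CPM narrows differences between low values, such as those of ST6GAL1. For ALPL the nearest were RPL18P13, PARP3, RNF227, NTAN1 and PRSS53 (distances 0.0481 to 0.0841), which rest on its 22 counts. All ALPL values were below the offset, which narrows their differences, so these distances cannot be set beside those of ALPP.

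Markers of the tissues after which the forms are named were read beside them. Of 23 placenta and trophoblast markers, 10 were tested and 0 passed the thresholds. The median log2 fold change of these 10 was 0.16, with 0.78 without untreated replicate 2 and -0.19 without untreated replicate 1. After doxorubicin 1 was higher and 1 lower at an unadjusted p-value under 0.05 (edgeR), against 2.66% and 1.73% of all genes tested. The summed level of the 23 markers was 2253 to 2710 CPM, nearly all of it KRT7, a keratin of simple epithelia. KRT7 had 2468 and 2455 CPM in untreated and 2487 and 2064 CPM in treated cells. TFAP2A had 126.9 and 51.3 CPM in untreated and 90.5 and 94.8 CPM in treated cells. PSG5, a pregnancy-specific glycoprotein gene, had 3.31 and 3.05 CPM in untreated and 11.5 and 11.6 CPM in treated cells. Its log2 fold change was 1.70 (standard error 0.47), and 1.66 without untreated replicate 2. GATA3 was at 2.01 and 10.5 CPM in untreated and 0.90 and 0.98 CPM in treated cells (log2 fold change -2.87, standard error 0.96, and -1.24 without untreated replicate 2). GCM1, CSH1 and CGB3 had at most 7 counts in any library, and 12 of the 23 markers had fewer than 10 in all of them. Other placental transcripts were above this level. CGA, the alpha chain gene of chorionic gonadotropin, had 50 and 237 counts in untreated and 251 and 197 counts in treated cells, and PSG1 had 36 and 50 against 94 and 106 counts.

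The intestinal and germ cell markers were lower still. Of 13 intestinal markers, 9 had fewer than 10 counts in every library, their summed level was 0.28 to 3.50 CPM, and CDX1, CDX2 and SI had at most 1 count. The highest by their mean were LGR5 and VIL1, with 1.73 and 0.87 CPM in untreated replicate 2 and at most 0.29 CPM elsewhere. ALPI had 50.5 to 142.0 CPM in these libraries. Only APOA4 passed the filter, with 0 and 4 counts in untreated and 16 and 10 counts in treated cells (log2 fold change 2.54, standard error 1.20, and 1.49 without untreated replicate 1), and 0 genes of the list passed the thresholds or had an unadjusted p-value under 0.05 (edgeR). Of 13 germ cell markers, 9 had fewer than 10 counts in every library, including NANOG, KIT, DDX4 and DAZL. The sum of the list, 33.7 to 70.4 CPM, came mainly from PRDM1 (20.9 and 6.34 CPM in untreated, 40.5 and 43.4 CPM in treated cells) and from DND1 (between 9.94 and 17.3 CPM). Of these 13, 4 were tested and 0 passed the thresholds or an unadjusted p-value of 0.05 (edgeR), with a median of -0.05 and of 0.15 without untreated replicate 2.

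Of the 22 liver markers, 9 were tested and 0 passed the thresholds (edgeR). Of these 9, 5 were above 0 and 4 below it, with a median log2 fold change of 0.81 and of 1.27 without untreated replicate 2. At an unadjusted p-value under 0.05 (edgeR) 3 were higher and 0 lower, against 2.66% and 1.73% of all genes tested. The 3 were the fibrinogen chain genes FGG, FGB and FGA, in a list set with earlier results of these libraries known. FGG had 6 and 3 counts in untreated and 335 and 386 counts in treated cells, with a log2 fold change of 6.23 (standard error 0.72). FGB had 0.19 and 0.17 against 3.09 and 2.54 CPM, and FGA 0.14 and 0.21 against 0.99 and 1.31 CPM. VTN had 11.2 and 9.83 CPM in untreated and 22.4 and 18.6 CPM in treated cells. FOXA1 had between 15.8 and 19.9 CPM.

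Genes that act with alkaline phosphatases were described as lists. Of 29 genes of GPI anchor synthesis and attachment, which place these enzymes on the membrane, 27 were tested, and 0 reached the thresholds or an unadjusted p-value under 0.05 (edgeR). In this list 9 genes were above 0 and 18 below it, with a median log2 fold change of -0.26, which was -0.04 without untreated replicate 2. GPAA1, a subunit of the transamidase that attaches the anchor, had 218.2 and 353.6 CPM in untreated and 251.3 and 220.0 CPM in treated cells. PGAP2, which remodels the anchor lipid, had between 143.9 and 337.6 CPM. The sum of the list was 1417 to 1715 CPM, with overlapping groups, beside the lower ALPP values of the treated libraries.

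Of 13 genes of mineralization and phosphate handling, 12 were found, 9 were tested, and 0 passed the thresholds or had an unadjusted p-value under 0.05 (edgeR). Their median log2 fold change was -0.00027, and it was -0.12 without untreated replicate 2 and 0.60 without untreated replicate 1. SLC20A1, a phosphate transporter gene, had 301.9 and 191.3 CPM in untreated and 292.7 and 324.5 CPM in treated cells, and ANKH, which sets pyrophosphate outside the cell, had 121.8 and 63.4 against 133.6 and 112.0 CPM. Of 4 genes of vitamin B6 phosphate handling, all 4 were tested and 0 passed the thresholds or had an unadjusted p-value under 0.05 (edgeR), with a median of -0.51 and of -0.10 without untreated replicate 2. PDXK, the kinase that makes pyridoxal phosphate, was at 439.4 and 126.0 CPM in untreated and 376.4 and 316.3 CPM in treated cells. PDXP, a phosphatase of the same compound inside the cell, had 24.3 and 73.7 against 26.8 and 41.8 CPM.

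Of 12 ecto-nucleotidases and genes of adenosine handling, 8 were tested and 0 passed the thresholds. The median was 0.08, and it was 0.19 without untreated replicate 2. At an unadjusted p-value under 0.05 (edgeR) 1 was higher and 0 lower, against 2.66% and 1.73% of all genes tested. The higher gene was NT5E, the GPI-anchored 5'-nucleotidase that makes adenosine at the cell surface. It had 38.2 and 17.0 CPM in untreated and 68.9 and 73.6 CPM in treated cells. Its log2 fold change was 1.20 (standard error 0.48), and 0.75 without untreated replicate 2. SLC29A1, a nucleoside transporter gene, had between 48.4 and 127.7 CPM with overlapping groups. ALPP and NT5E, both surface enzymes with the same kind of anchor, had log2 fold changes of opposite sign, which describes these 2 genes only.

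Of 10 acid and other phosphatases, 8 were tested and 0 passed the thresholds. The median was -0.15, with -0.18 without untreated replicate 2 and 0.10 without untreated replicate 1. At an unadjusted p-value under 0.05 (edgeR) 1 was higher and 0 lower, against 2.66% and 1.73% of all genes tested. ACP5, tartrate-resistant acid phosphatase, had 0.25 and 0.55 CPM in untreated and 1.28 and 1.60 CPM in treated cells (log2 fold change 1.72, standard error 0.66, and 2.36 without untreated replicate 2). ACP1, a low molecular weight protein phosphatase gene, had between 128.6 and 170.6 CPM, and PPA1, inorganic pyrophosphatase, between 115.7 and 163.2 CPM, both with overlapping groups. All these lists were set with earlier results of these libraries known.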

How the data were processed

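The 4 RNA-seq libraries were 2 of untreated cells and 2 of cells given doxorubicin at 1 ug/ml for 24 h, grouped by their titles and the design of the series. The authors trimmed the reads with Cutadapt, mapped them with HISAT2 and counted them with HTSeq (named in the methods and the submitters' processing notes), and deposited whole-number counts per gene symbol, with GENCODE release 31 named in the header. Versions, strand and treatment of reads with several matches were not given in the sources used here. CPM was count over library total. The quasi-likelihood test of edgeR 4.0.16 (R 4.3.3) was run after filterByExpr and TMM scaling, with a prior count of 0.125. Thresholds were 0.05 for the adjusted p-value and 1 for the size of the log2 fold change. The test was tried on simulated counts, and its power at the spread of these data is not given here. ALPL did not pass the filter, so its fold change comes from a fit without it. Intervals are exact Poisson at 95%, the floor is 3 counts, and both cover counting error only.

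Positions, exon lengths and transcripts are from GENCODE release 44 (GRCh38), which matched 36434 of 59050 symbols, and promoters from RefSeq (GRCh38.p14). The coding sequence of ALPL is not printed here. Sequences were compared with Biopython 1.88 under Python 3.11.15. Named genes were the members, the 2 highest of each list by mean CPM and up to 3 with the smallest unadjusted p-value under 0.05, neighbours with a mean of at least 1 CPM, and the 5 genes nearest to ALPP and to ALPL. Other genes are named as examples of absent or present markers and were chosen after their values were seen. The members and lists were chosen with earlier results of these data known. The alternatives were RLE factors, library size alone, no filter, a filter at 1 CPM in 2 or more libraries, DESeq2 1.42.0, the replicate number as a block, a prior count of 2, another gene length and each library left out.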

Additional observations from a re-analysis of the deposited data

How the results depend on the processing

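With edgeR, 0 genes passed the thresholds with all 4 libraries (768 had an unadjusted p-value under 0.05). RLE factors, library size alone, no filter and a filter at 1 CPM in 2 or more libraries gave 0 as well (591 to 1543 unadjusted). DESeq2 called 90 genes (0.515% of 17479 tested). Among them were the member ALPP and 2 listed genes, FGB and FGG. The members and the lists were chosen with earlier results of these libraries known. Calls on them, in this fit and in those below, are therefore a description and give no support of their own. With the replicate block, 20 genes were called (0.114% of 17479 tested), of which 1, FGG, was a listed gene and 0 were members. The cause was not tested. Across genes, the deviations of same-numbered libraries correlated at -0.0330. Untreated replicate 2 stood apart from the other libraries, so this value cannot show whether libraries with the same number were prepared together. With each library left out, between 0 and 8697 genes and between 0 and 38 listed genes were called. The count of 8697 (44.4% of 19606 genes tested, ALPP and ALPG among them) was without untreated replicate 1. Without untreated replicate 2 it was 815 (4.44% of 18356, ALPP and ALPI among them), with 11 listed genes. In these fits the spread comes from the doxorubicin pair alone, and the lone untreated library is assumed to vary like it. The number of listed genes tested in these fits is not given here. The counts of listed genes therefore cannot be set against the shares of all genes. Without either doxorubicin library 0 were called.

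Across the left-out libraries the log2 fold change was between -2.01 and -1.56 for ALPP, -2.68 and -0.54 for ALPG, -1.13 and 0.42 for ALPI, and -0.016 and 5.95 for ALPL, and the difference of ALPP minus ALPL was between -7.53 and -1.93. The values of 5.95 and -7.53, without untreated replicate 2, depend on the prior count and are no bound, since ALPL then had 0 counts in untreated cells. No other alternative moved a fold change by more than the spread between replicates. The ratio of ALPP to ALPL per kb over the 4 libraries was 2217, and between 1519 and 3524 with a library left out or with another gene length. Depth limits ALPL, at 22 counts in all, and ALPG, at 17 to 174 counts a library.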
